A study of Mus musculus with 99 samples.

Results

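The genes described here are the 7 that carry most of the MHC class II antigen presentation pathway in the mouse: H2-Aa, H2-Ab1, H2-Eb1, Cd74, H2-DMa, H2-DMb1 and Ciita. They were chosen by symbol from a count table of 35870 genes, and each symbol matched 1 gene. All 7 passed the filter on low counts in each of the 3 tissues.

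MHC class II molecules are pairs of an alpha and a beta chain that show peptides from endosomes to CD4+ T cells. H2-Aa and H2-Ab1 encode the chains of I-A, and H2-Eb1 encodes the beta chain of I-E. Cd74 encodes the invariant chain, which guides new class II molecules to endosomes and blocks their groove. H2-DMa and H2-DMb1 encode the H2-DM heterodimer that exchanges the last invariant chain fragment for peptide. Ciita encodes the transactivator that is recruited to class II promoters by factors bound at the X and Y boxes, and it is induced by interferon gamma. Macrophages, dendritic cells and B cells are the usual class II expressing cells of muscle, while microglia at rest in the cord carry little and the border tissues around it carry more.

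RNA sequencing was done on gastrocnemius and quadriceps, a pair of hindlimb muscles, and on spinal cord of wild-type male C57BL/6 mice. In gastrocnemius there were 13 libraries from exercised mice of 18 months, 10 from sedentary mice of 18 months and 10 from sedentary mice of 10 months. Quadriceps gave 12, 9 and 10 libraries of the same groups in that order, and cord 13, 10 and 10. The animals had been perfused with PBS, RNA was taken with Trizol, and libraries were built from polyA RNA (TruSeq RNA v2). The labels do not describe the kind or length of exercise. It is not stated there whether libraries of a group came from separate mice, so p-values measure the spread between these libraries. In bulk tissue, fewer cells of a type and less RNA per cell cannot be told apart.

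Total counts ran between 29.1 and 62.8 M reads per library over the 97 libraries. The tissues matched their labels by marker genes. Summed TPM, an expression unit scaled by transcript length and library, of 5 cord markers lay between 12024 and 14484 in cord, against 7.04 to 26.99 in the muscles. Summed TPM of 5 muscle markers lay between 104.5 and 895.6 in cord, against 88895 to 146480 in the muscles. Gastrocnemius libraries 2.2 and 3.1, quadriceps library 3.1 and cord libraries 5.2 and 6.1 stood apart from the other libraries of their tissue, and results that change without them are given both ways.

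In the GRCm38 assembly with GENCODE M21 gene models, 5 of the 7 genes sit in the class II region of chromosome 17. H2-DMa spans chr17:34119541-34139101 on the plus strand and H2-DMb1 spans chr17:34153072-34160230 on the plus strand. H2-Ab1 spans chr17:34257689-34269419 on the plus strand, H2-Aa spans chr17:34282744-34287823 on the minus strand and H2-Eb1 spans chr17:34305867-34316674 on the plus strand. Exons of H2-DMa share 360 of its 3448 exon bases with Brd2 on the opposite strand, and exons of Ciita share 329 bases, 3.45% of its exon bases, with Dexi on the opposite strand. No source used here says whether the counting used strand, so reads there cannot be assigned to either gene with certainty. H2-DMb1 has a close paralog, H2-DMb2, and reads shared between them could have been split.

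Promoter windows from RefSeq on GRCm38.p6, 250 bases before to 50 bases after the annotated start, are printed for H2-Aa, H2-Eb1 and H2-DMb1, because these genes were among those that varied together across libraries. H2-DMa varied with H2-Ab1 too, and its 2 windows in the same table are not printed. Neither held the X box core, and 1 held a Y box. H2-Ab1, Cd74 and Ciita had no window in that source and are not shown, although H2-Ab1 and Cd74 varied closely with H2-Aa and H2-Eb1. Capitals mark an X box core and a Y box. The X box core was searched as AGCAACTGATG with any base allowed at the third and the seventh letter, and the Y box as GATTGG, both on both strands, and only matches on the strand of the gene are in capitals. H2-Aa is read at chr17:34287774-34288073 on the minus strand, H2-Eb1 at chr17:34305617-34305916 on the plus strand and H2-DMb1 at chr17:34152941-34153240 on the plus strand.
H2-Aa: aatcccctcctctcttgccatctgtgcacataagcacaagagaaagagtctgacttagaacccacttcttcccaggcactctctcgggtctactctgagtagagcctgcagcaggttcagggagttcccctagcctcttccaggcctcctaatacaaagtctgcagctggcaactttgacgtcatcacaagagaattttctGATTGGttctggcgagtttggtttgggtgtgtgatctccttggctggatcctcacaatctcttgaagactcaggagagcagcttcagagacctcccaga
H2-Eb1: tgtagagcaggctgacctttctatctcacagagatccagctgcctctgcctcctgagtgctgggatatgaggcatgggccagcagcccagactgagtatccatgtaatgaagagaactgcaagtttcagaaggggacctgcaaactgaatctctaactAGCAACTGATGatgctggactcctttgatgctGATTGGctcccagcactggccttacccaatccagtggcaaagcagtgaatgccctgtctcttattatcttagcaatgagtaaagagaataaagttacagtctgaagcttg
H2-DMb1: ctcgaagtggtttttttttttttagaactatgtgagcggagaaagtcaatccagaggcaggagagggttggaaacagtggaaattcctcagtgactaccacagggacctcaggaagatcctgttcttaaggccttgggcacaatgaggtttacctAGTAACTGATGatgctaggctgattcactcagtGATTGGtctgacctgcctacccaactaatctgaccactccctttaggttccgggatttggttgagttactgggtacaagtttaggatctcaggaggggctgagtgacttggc
The window of H2-Eb1 held an X box core that began 92 bases before the start and a Y box 60 bases before it, with 21 bases between them. In the window of H2-DMb1 the same motifs began 95 and 62 bases before the start, with 22 bases between them. The window of H2-Aa held a Y box 49 bases before the start and no match to these X box letters. Over all 32851 mouse promoter windows of the same table, 0.298% held the X box core, 16.1% the Y box, and 0.0183%, which is 6 windows, held both on one strand with the X box first. Those were the windows of H2-Eb1, H2-DMb1, H2-Eb2, Prpf38b, Scgb2b20 and Strn4.

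On the TPM scale, which divides by transcript length, Cd74 had the highest level of the 7 genes in every tissue, with medians over libraries of 70.5 in cord, 78.4 in gastrocnemius and 78.2 in quadriceps. The I-A chains came next: H2-Aa had median TPM of 47.2 in cord, 53.3 in gastrocnemius and 48.9 in quadriceps, and H2-Ab1 had 30.9, 34.9 and 31.8 TPM in the same order of tissues. H2-Eb1 had 26.2, 24.5 and 23.0 TPM in that order. The H2-DM chains and the transactivator were lower in all 3 tissues. H2-DMb1 had a median of 12.9 TPM in cord, 3.49 TPM in gastrocnemius and 2.38 TPM in quadriceps. H2-DMa had 6.59, 1.14 and 0.926 TPM in that order, and Ciita 0.633, 0.434 and 0.323 TPM. The order of the medians, Cd74, H2-Aa, H2-Ab1, H2-Eb1, H2-DMb1, H2-DMa and Ciita, was thus the same in each tissue on this scale. Ranges over libraries of Cd74 and H2-Aa, of H2-Aa and H2-Ab1, and of H2-Ab1 and H2-Eb1 overlapped in every tissue. Within a library the order on the deposited TPM scale held without exception: each gene was above the next in all 33 gastrocnemius, all 31 quadriceps and all 33 cord libraries. The narrowest step was that of H2-Ab1 over H2-Eb1 in cord, with a median ratio of TPM of 1.19 and a lowest ratio of 1.02, against medians of 1.41 in gastrocnemius and 1.39 in quadriceps. H2-Eb1 exceeded H2-DMb1 by a median ratio of TPM of 7.58 in gastrocnemius, and by ratios between 1.42 and 3.06 in cord. Ciita (chr16:10480059-10528418) and Cd74 (chr18:60803848-60812652), both on the plus strand, lie outside the class II region. The length on which the deposited TPM of H2-DMa rests is 6798 bases, against 3448 exon bases in GENCODE M21, so its TPM may be set low by that choice. With exon bases as the length of H2-DMa, an alternative added after seeing the data, H2-DMb1 was above it in 32 of 33 gastrocnemius, 29 of 31 quadriceps and 19 of 33 cord libraries. With exon bases as the length of all 7 genes, which for H2-Aa are 3798 against a deposited 1069, H2-Eb1 was above H2-Ab1 in every library, H2-Ab1 was above H2-Aa in 33 of 33 gastrocnemius, 30 of 31 quadriceps and 28 of 33 cord libraries, and H2-DMa was above H2-DMb1 in all 33 cord libraries. The order among the I-A chains and H2-Eb1, and between the H2-DM chains, thus depended on the length used, while Cd74 stayed above H2-Aa and Ciita below H2-DMa in every library under both choices.

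**Figure D1:**
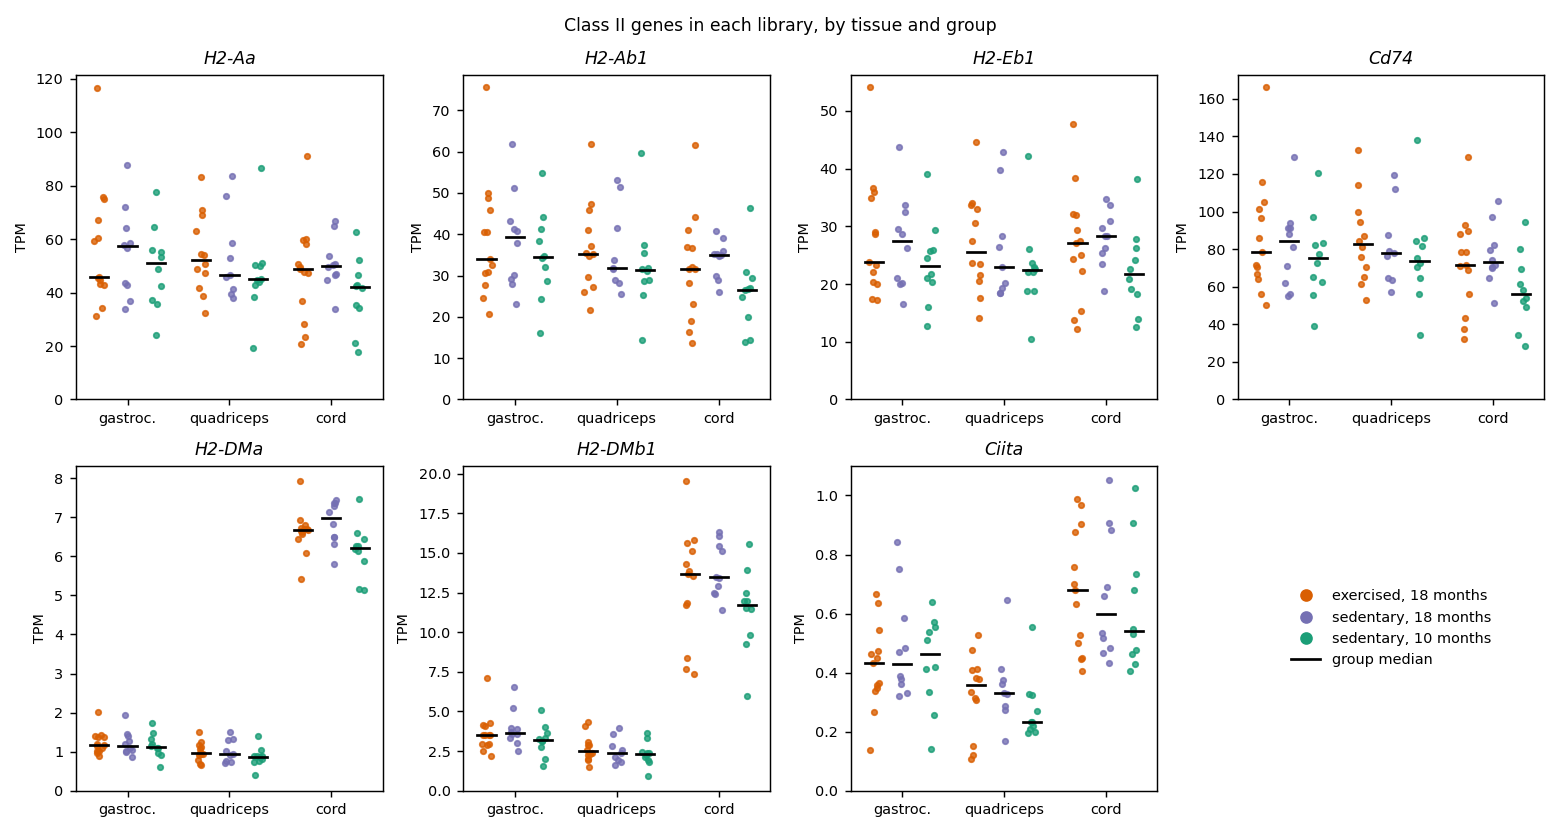
TPM (linear axis from 0) of the 7 class II genes in each library, by tissue and group (exercised 18 months, sedentary 18 months, sedentary 10 months), with black bars at the group medians. Points of the 3 groups overlap within each tissue for each gene, and H2-DMa and H2-DMb1 sit higher in cord (medians 6.59 and 12.9 TPM) than in either muscle.

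The partner of the I-E beta chain was almost without reads. H2-Ea-ps, the disrupted E alpha gene that C57BL/6 mice are known to carry, had 1 count in 1 of 33 gastrocnemius libraries and 0 counts in all 31 quadriceps and all 33 cord libraries, where a count of 0 allows up to 3 counts in a library. H2-Eb1 had 365 to 1659 counts per library in gastrocnemius, 301 to 1360 in quadriceps and 229 to 1022 in cord. The E alpha gene was thus not detectable at this depth in nearly all libraries that carried these reads of the beta chain. H2-Eb2, a second E beta gene, had a median of 0.171 TPM in cord and at most 0.404 TPM there.

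Exercise at 18 months was set against sedentary mice of the same age. In gastrocnemius, H2-Ab1 had a lowest, median and highest value of 11.02, 19.3 and 40.4 CPM, the count scaled by library total and TMM factor within the tissue, in exercised mice, against 12.8, 20.7 and 31.4 CPM in sedentary mice. In quadriceps it had 13.0, 20.02 and 33.8 CPM in exercised mice, against 12.4, 17.1 and 26.7 CPM in sedentary mice. Both groups overlapped over most of their range in each muscle. Cord values of H2-Ab1 were 5.86, 12.9 and 24.8 CPM in exercised mice, against 10.6, 14.6 and 17.1 CPM in sedentary mice, so that the exercised libraries enclosed the sedentary ones at both ends.

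No class II gene passed the test for exercise in any tissue. The count was 0 of 7 in gastrocnemius, where 0.106% of all 15027 genes tested were called at an adjusted p under 0.05 (edgeR quasi-likelihood test, Benjamini-Hochberg). It was 0 of 7 in quadriceps, where 0.757% of 14790 genes were called, and 0 of 7 in cord, where 0% of 18956 genes were called. In cord 2565 genes had an unadjusted p under 0.05 for exercise, and DESeq2 and limma voom also called 0 genes. Cd74, the highest of the 7, had a log2 difference of 0.11 (SE 0.17, 95% interval -0.23 to 0.45) in gastrocnemius, 0.11 (SE 0.17, -0.23 to 0.45) in quadriceps and -0.12 (SE 0.18, -0.47 to 0.23) in cord. H2-DMa had the narrowest interval, in cord, at a log2 difference of -0.07 (SE 0.06, -0.19 to 0.05). Over the 7 genes the log2 differences ran between -0.21 (Ciita) and 0.11 (Cd74) in gastrocnemius, between -0.08 (Ciita) and 0.14 (H2-DMb1) in quadriceps, and between -0.13 (H2-DMb1) and 0.01 (Ciita) in cord.

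Ageing was read as sedentary mice of 18 months against sedentary mice of 10 months. Libraries of 10 months and of 18 months never shared the first part of the library number, before the point. What that part marks is not stated, and it cannot be told apart from age. In cord, Cd74 had a lowest, median and highest value of 25.1, 38.1 and 49.6 CPM at 18 months, against 14.1, 27.8 and 47.8 CPM at 10 months. The medians stood apart, and the highest library of 10 months lay above every 18-month library but 1. H2-Ab1 had 10.6, 14.6 and 17.1 CPM at 18 months, against 5.80, 10.8 and 19.8 CPM at 10 months, and its highest single value belonged to the younger group. H2-DMa had 13.97, 16.6 and 20.3 CPM at 18 months, against 12.2, 14.6 and 18.1 CPM at 10 months, again with overlap. Ciita had 1.201, 1.61 and 2.70 CPM at 18 months, against 1.08, 1.4001 and 2.64 CPM at 10 months.

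In cord 0 of 7 class II genes passed the test for ageing, where 5.35% of all genes were called (edgeR quasi-likelihood test). All 7 log2 differences were above 0. Cd74 stood at 0.42 (SE 0.19, adjusted p = 0.157 by edgeR), H2-Ab1 at 0.42 (SE 0.20, adjusted p = 0.178 by edgeR) and H2-Aa at 0.38 (SE 0.20, adjusted p = 0.216 by edgeR). H2-Eb1 stood at 0.35 (SE 0.19), H2-DMb1 at 0.31 (SE 0.15), and Ciita at 0.13 (SE 0.18). H2-DMa had the smallest p of the 7, 0.00705 unadjusted and 0.0766 adjusted by edgeR, with a log2 difference of 0.18 (SE 0.06). The unadjusted 95% intervals of Cd74 (0.05 to 0.80), H2-Ab1 (0.03 to 0.80), H2-DMa (0.06 to 0.31) and H2-DMb1 (0.03 to 0.60) lay above 0, which the adjustment over 18956 genes did not carry. Without cord library 2.1, of the sedentary 10-month group, H2-DMa was called at 0.22 (SE 0.06, adjusted p = 0.0231 by edgeR). Without cord library 7.4, of the sedentary 18-month group, it was called at 0.20 (SE 0.07, adjusted p = 0.0483 by edgeR). Those fits called 1698 and 1858 of all genes, against 1015 in the full fit, so more genes passed in general. H2-DMa was not called in the full fit. With a slope on gene length as a covariate it was 0.09 (SE 0.06, adjusted p = 0.373 by edgeR). By limma voom with quality weights H2-Ab1 was called, at 0.56 with an adjusted p of 0.049989, where that tool called 11.9% of all genes.

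The muscles gave no called class II gene for ageing either. It was 0 of 7 in gastrocnemius, where 0.153% of all genes were called, and 0 of 7 in quadriceps, where 0.352% were called (edgeR quasi-likelihood test). H2-Ab1 had 12.8, 20.7 and 31.4 CPM in gastrocnemius at 18 months, against 7.75, 19.3 and 28.6 CPM at 10 months, and the groups overlapped. In quadriceps it had 12.4, 17.1 and 26.7 CPM at 18 months, against 6.91, 16.9 and 32.6 CPM at 10 months. The log2 differences of the 7 genes ran between 0.07 (H2-DMa) and 0.28 (H2-DMb1) in gastrocnemius and between 0.06 (Cd74) and 0.31 (Ciita) in quadriceps. The 95% interval for Cd74 was -0.27 to 0.46 in gastrocnemius and -0.30 to 0.41 in quadriceps.

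Exercised mice of 18 months against sedentary mice of 10 months share libraries with both comparisons above. It gave 0 of 7 class II genes in gastrocnemius, where 6.73% of all genes were called, 0 of 7 in quadriceps, where 11.1% were called, and 0 of 7 in cord, where 1.51% were called (edgeR quasi-likelihood test). Log2 differences of H2-Ab1 were 0.14 in gastrocnemius, 0.19 in quadriceps and 0.30 in cord, each with an SE of 0.17 to 0.19. For H2-Eb1, the I-E beta chain, they were 0.24, 0.24 and 0.25 in the same order, with SE of 0.17 to 0.18.

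**Figure D2:**
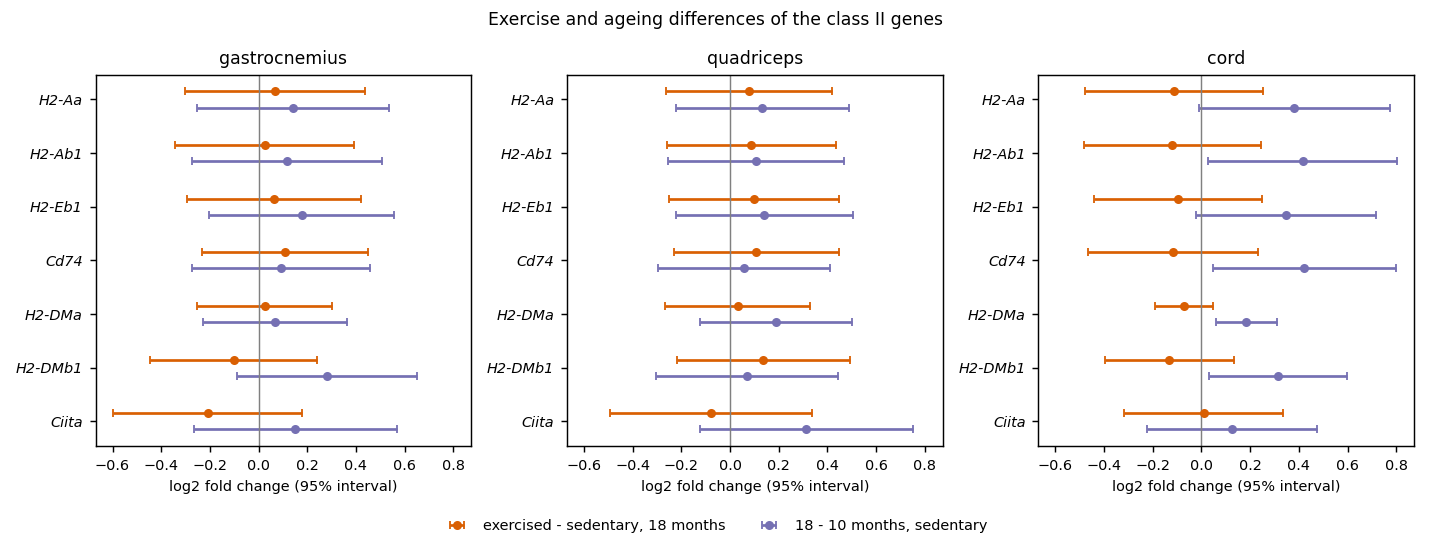
Log2 differences with 95% intervals of the 7 class II genes for exercise at 18 months (exercised minus sedentary) and for ageing in sedentary mice (18 minus 10 months), in each tissue. Cord ageing values of Cd74 and H2-Ab1, both 0.42, sit furthest above 0, while Ciita has its largest ageing value in quadriceps (0.31), and no gene in any panel passed the test after adjustment over all genes.

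The differences of these effects between tissues were tested in a fit over all 97 libraries. For the ageing effect in cord against the muscles, 0 of 7 were called, where 2.61% of all 19735 genes tested were called; Cd74 stood at 0.33 (SE 0.23, adjusted p = 0.426 by edgeR). For the exercise effect in cord against the muscles, 0 of 7 were called, where 0.887% of all genes were called. For the ageing effect in gastrocnemius against quadriceps 0 of 7 and 0% of all genes were called by edgeR, with 549 genes at an unadjusted p under 0.05 and 1 gene called by DESeq2. For the exercise effect in gastrocnemius against quadriceps 0 of 7 and 0% of all genes were called by edgeR, with 791 genes at an unadjusted p under 0.05 and 0 called by DESeq2. Ageing values of H2-Aa, H2-Ab1, H2-Eb1, Cd74 and H2-DMb1 were larger in cord than in either muscle, those of Ciita (0.13 in cord, against 0.15 in gastrocnemius and 0.31 in quadriceps) were smaller, and no difference between cord and the muscles passed the test for any of the 7 genes.

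Levels differed between cord and muscle in sedentary mice of 10 months, and not in one direction. H2-DMa had 5.13, 6.22 and 7.45 TPM as lowest, median and highest value in cord, against 0.600, 1.12 and 1.74 TPM in gastrocnemius and 0.404, 0.873 and 1.395 TPM in quadriceps. H2-DMb1 had 5.98, 11.7 and 15.5 TPM in cord, against 1.59, 3.204 and 5.09 TPM in gastrocnemius and 0.910, 2.31 and 3.67 TPM in quadriceps. For both H2-DM chains every cord library lay above every muscle library. H2-Aa had 17.7, 42.1 and 62.5 TPM in cord, against 24.0, 51.1 and 77.8 TPM in gastrocnemius and 19.4, 45.0 and 86.6 TPM in quadriceps, and the tissues overlapped.

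With TMM factors across all 97 libraries, all 7 genes were called between cord and the muscles, where 92.1% of all genes were called (edgeR quasi-likelihood test), so the call itself says little about these genes. The size and its sign carry more. H2-Aa (log2 difference -1.81, SE 0.19), H2-Ab1 (-1.91, SE 0.19), H2-Eb1 (-1.59, SE 0.18), Cd74 (-1.92, SE 0.18) and Ciita (-0.70, SE 0.18) were lower in cord, and H2-DMa (1.09, SE 0.11) and H2-DMb1 (0.54, SE 0.15) were higher. The scaling bears on these values, because the median TMM factor was 1.71 in cord, 0.787 in gastrocnemius and 0.748 in quadriceps, and the median log2 difference of all genes was 0.40. With library totals in place of TMM factors the values were -0.66 for H2-Aa, -0.75 for H2-Ab1, -0.44 for H2-Eb1, -0.77 for Cd74, 2.24 for H2-DMa and 1.68 for H2-DMb1, and Ciita turned to 0.45 (adjusted p = 0.0235 by edgeR), with a median of all genes of 1.54. Relative to the median of all genes, the difference of Cd74 was -2.32 with TMM factors and -2.30 with library totals, that of Ciita -1.10 and -1.09, that of H2-DMa 0.69 and 0.70, and that of H2-DMb1 0.14 under both. By DESeq2, whose median of 0.04 is over all 32170 genes with no filter on low counts, the relative values were -1.95 for Cd74, -0.72 for Ciita, 1.07 for H2-DMa and 0.51 for H2-DMb1.

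**Figure D3:**
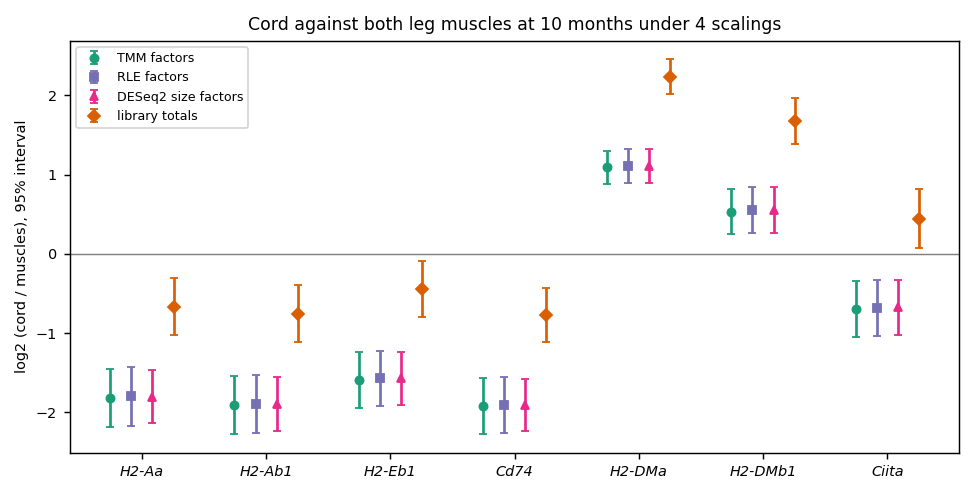
Log2 differences of the 7 class II genes between cord and the mean of both muscles in sedentary mice of 10 months, with 95% intervals, under TMM, RLE and DESeq2 factors and library totals. H2-DMa and H2-DMb1 lie above 0 and the I-A chains, H2-Eb1 and Cd74 below 0 under every scaling drawn, while Ciita lies on different sides of 0 (-0.70 with TMM factors and 0.45 with library totals).

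Between the muscles no class II gene was called at 10 months, where 11% of all genes were called (edgeR quasi-likelihood test). Ciita had 0.143, 0.465 and 0.639 TPM in gastrocnemius, against 0.196, 0.233 and 0.554 TPM in quadriceps, with overlap. Its log2 difference was 0.52 (SE 0.21, adjusted p = 0.108 by edgeR), and without the libraries that stand apart it was 0.64 with an adjusted p of 0.0262, a call, where 21.6% of all genes were then called by edgeR. The other members had log2 differences between -0.17 (Cd74) and 0.31 (H2-DMb1).

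The class II genes varied more between libraries of one group than other genes of like level. Within groups the SD of log2 CPM of H2-Aa, H2-Ab1, H2-Eb1 and Cd74 lay between 0.44 and 0.50 in the 3 tissues. That was above the SD of 97.7% to 99.4% of the genes within 0.5 log2 units of their mean level. Ciita had an SD of 0.52 in gastrocnemius, 0.51 in quadriceps and 0.40 in cord. H2-DMa was the exception in cord: its SD was 0.15 there, above 53.6% of genes of like level, against 0.35 in gastrocnemius and 0.37 in quadriceps. In both muscles library 3.1 of the sedentary 10-month group, one of those that stand apart, was the lowest of all libraries for H2-Aa, H2-Ab1, H2-Eb1 and Cd74.

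These deviations were shared among the class II genes. After the group mean was removed, log2 CPM of H2-Aa followed that of H2-Ab1 with Pearson r = 0.98 (Spearman rho 0.961) over 33 gastrocnemius libraries, 0.978 (0.953) over 31 quadriceps libraries and 0.968 (0.958) over 33 cord libraries. H2-Eb1 and Cd74 followed H2-Ab1 with r between 0.957 and 0.985 in the 3 tissues. For H2-DMb1, r was 0.867 (rho 0.802) in gastrocnemius, 0.823 (0.742) in quadriceps and 0.83 (0.768) in cord. H2-DMa had r = 0.836 (rho 0.748) in gastrocnemius, 0.847 (0.782) in quadriceps and 0.607 (0.544) in cord. The transactivator was the loosest: Ciita had r = 0.579 (rho 0.699), 0.488 (0.464) and 0.327 (0.218) in that order.

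Of these 18 relations, 17 passed a two-sided permutation test within groups (100000 resamples) after Benjamini-Hochberg adjustment, most at 1e-05, the smallest p such permutations can give, which adjusts to 1.29e-05. The exception was Ciita in cord, with an adjusted permutation p of 0.0748 for r and 0.242 for rho. Without the 2 libraries farthest from the median of H2-Ab1, r of H2-Aa was 0.97 in gastrocnemius, 0.962 in quadriceps and 0.956 in cord, and r of Ciita was 0.476, 0.357 and 0.216. Libraries share their depth and scaling across genes. How many other genes would pass the same test against H2-Ab1 was not counted. The count of 17 thus does not show that such relations are particular to class II genes. Low counts widen counting error, and Ciita had at most 92 counts in a quadriceps library and 123 in a cord library. H2-DMb1, with r = 0.823 in quadriceps, had at most 96 counts in a library there. The part of counting error in the r of Ciita was not tested.

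**Figure D4:**
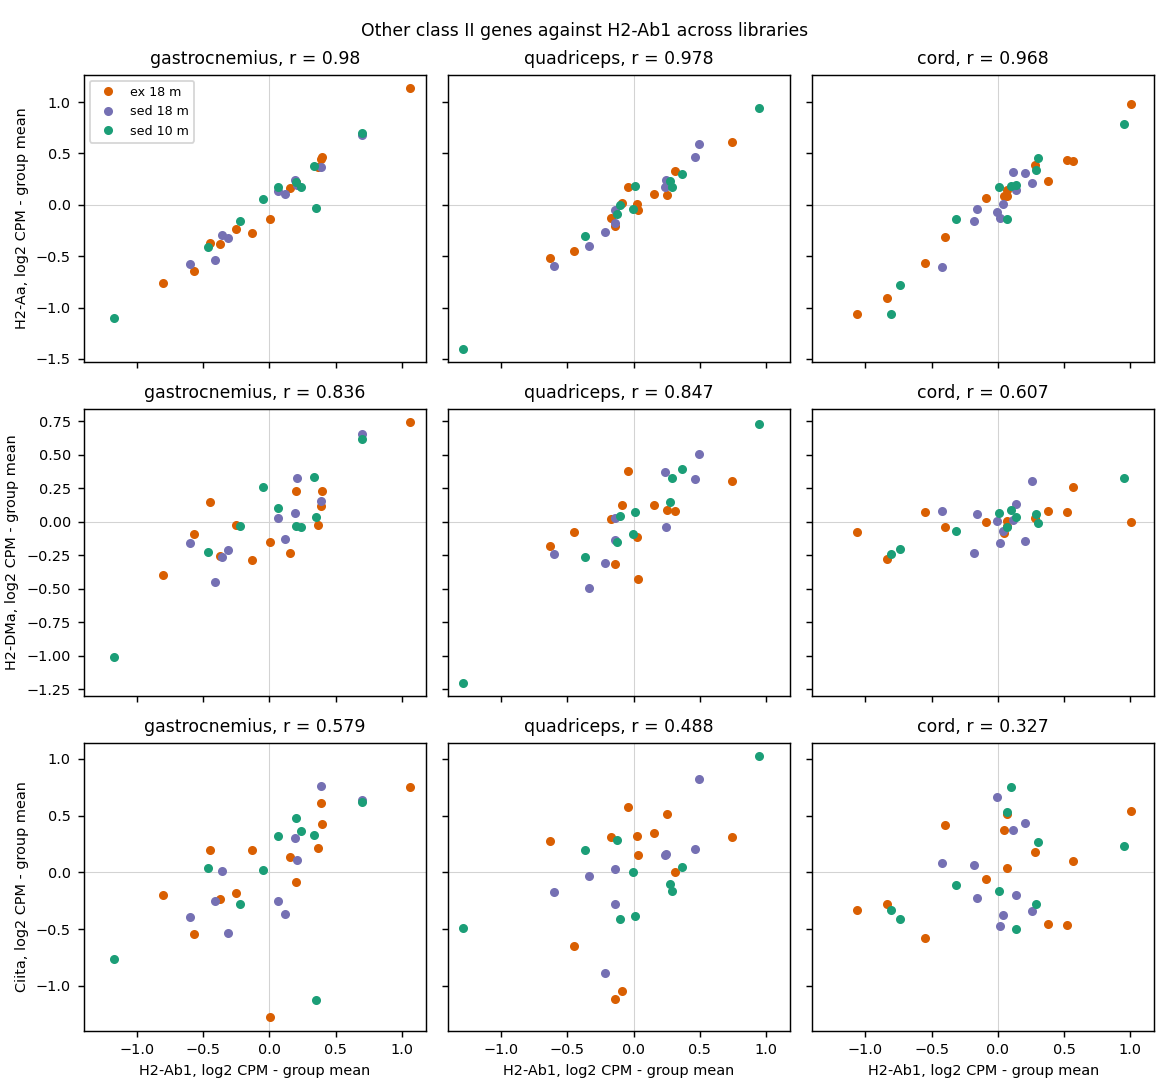
Log2 CPM minus the group mean of H2-Aa, H2-DMa and Ciita (vertical axis, 1 row of panels each) against that of H2-Ab1 (horizontal axis), 1 point per library, in each tissue. H2-Aa lies along a narrow line (r of 0.968 to 0.98), H2-DMa spans a flat band in cord (r = 0.607), and points of Ciita scatter widely, with r = 0.327 in cord.

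Library numbers recur across tissues in the labels, and it is not stated that a number marks a mouse. Deviations of same-numbered libraries were related between the muscles. For H2-Ab1, r was 0.732 (rho 0.622, n = 31, adjusted permutation p = 7e-05), for H2-Eb1 0.777 (rho 0.649), for H2-Aa 0.72 (rho 0.582) and for Cd74 0.693 (rho 0.604). H2-DMa had r = 0.651 and H2-DMb1 r = 0.654, and the rho of H2-DMa, 0.406, did not pass (adjusted permutation p = 0.104). Ciita had r = 0.325 (adjusted permutation p = 0.213). Without the 2 libraries farthest from the median, r was 0.58 for H2-Ab1 and 0.683 for H2-Eb1.

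Muscle and cord libraries of the same number showed no such relation. H2-Ab1 in gastrocnemius against cord had r = -0.00194 (rho -0.0782, n = 33, adjusted permutation p = 0.994), and in quadriceps against cord r = -0.0491 (rho -0.0484, n = 31, adjusted permutation p = 0.886). Of 21 relations, 6 passed by Pearson's r, and these were the 6 between the muscles other than Ciita. How many other genes would pass was not counted, so these 6 are not shown to be particular to class II genes. Across 14169 genes, deviations of same-numbered libraries had a median r of 0.27 between the muscles. That median was 0.079 between gastrocnemius and cord and 0.063 between quadriceps and cord. Libraries 1.4 of the sedentary 10-month group, 6.1 of the sedentary 18-month group and 6.3 of the exercised group were the highest of their group for H2-Ab1 in both muscles. The difference in r between pairs of tissues was not tested.

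**Figure D5:**
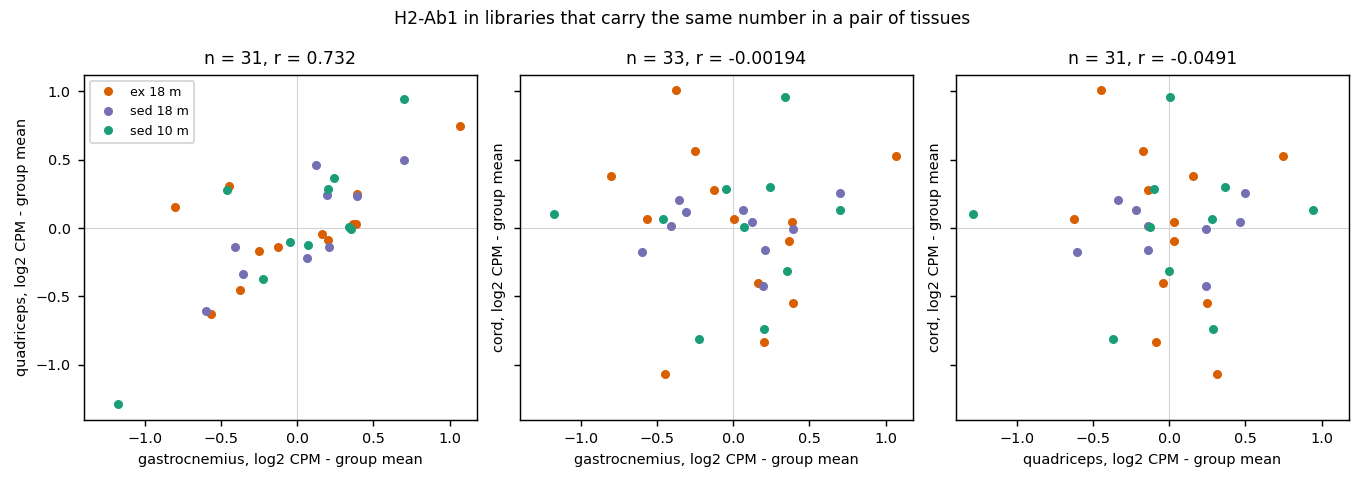
Log2 CPM minus the group mean of H2-Ab1 in libraries of the same number, for gastrocnemius against quadriceps, gastrocnemius against cord and quadriceps against cord. Points lie along a slope for the muscles (r = 0.732, n = 31) and show no slope with cord (r = -0.00194, n = 33, and r = -0.0491, n = 31).

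The genes outside the 7 whose deviations were most like the mean of the 7 class II genes, each scaled to unit spread, were listed for each tissue. In gastrocnemius the highest r over 33 libraries, among 12306 genes, belonged to Csf1r (0.897), the receptor for colony stimulating factor on macrophages, Pltp (0.894), Unc93b1 (0.891), Pld4 (0.89) and Selplg (0.889). In quadriceps, over 31 libraries and 12162 genes, they were Pld4 (0.823), Clec4a1 (0.805), Cfp (0.792), B2m (0.782), the light chain of MHC class I, and Unc93b1 (0.76). In cord, over 33 libraries and 15509 genes, they were Mxra8 (0.912), Serping1 (0.909), Dcn (0.901), a small proteoglycan of connective tissue, Rcn3 (0.9) and Gpc3 (0.898). Pld4 and Unc93b1 were on both muscle lists, and no gene was on a muscle list and the cord list. The r values are descriptions, since the genes were picked by them.

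Markers of other cells were set beside H2-Ab1 in the same way, in relations added after the data were seen. Their permutation p-values are thus not those of a planned test. The summed TPM of 17 macrophage and microglia markers followed H2-Ab1 with r = 0.787 (rho 0.826, adjusted permutation p = 5e-05) in gastrocnemius, 0.464 (rho 0.452, adjusted permutation p = 0.0174) in quadriceps and 0.329 (rho 0.467, adjusted permutation p = 0.115 for r and 0.00987 for rho) in cord. For 9 T and NK cell markers r was 0.677, 0.518 and 0.732 in that order of tissues. In the muscles this sum was near the floor, with group medians of 0.744 to 2.4 TPM. Only 1 of the 9 markers passed the filter on low counts in each muscle. For 9 markers of meningeal fibroblasts, a list added after values were seen, r was 0.519 (rho 0.43) in gastrocnemius, 0.308 (rho 0.098) in quadriceps and 0.828 (rho 0.695) in cord, given as descriptions with no test because the list was chosen after the cord values had been seen. Adjustment was over 15 relations of 5 lists in 3 tissues, the meningeal list among them. The summed meningeal TPM in cord ran between 115 and 562 in exercised mice, between 178 and 447 in sedentary mice of 18 months and between 130 and 543 in sedentary mice of 10 months. Group medians of this sum were 386 to 405 TPM in cord, against 388 to 447 TPM in gastrocnemius and 351 to 419 TPM in quadriceps. The level of the list was thus not particular to cord, and its name does not show that meningeal cells were measured. For B cell markers, r was 0.393, 0.266 and 0.405, and for dendritic cell markers 0.678, 0.359 and 0.255. The dendritic cell sum in cord was mostly 1 gene, Fscn1, with a median of 170 TPM, where group medians of the sum were 199 to 213 TPM. The r of this sum in cord therefore says little about the other markers of that list. Fscn1 was also a large part of the sum in the muscles, with medians of 7.41 TPM in gastrocnemius and 6.76 TPM in quadriceps. Group medians of the sum there were 12.8 to 14.9 TPM, so the same limit holds for r in the muscles. B cell sums in the muscles were low, with group medians of 1.52 to 3.02 TPM.

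With that meningeal level as a covariate, an alternative chosen after its relation to H2-Ab1 had been seen, the ageing values in cord were near those without it. Cd74 had a log2 difference of 0.39 (SE 0.11), H2-Ab1 0.38 (SE 0.13) and H2-Aa 0.34 (SE 0.12). No test is read from these values. The summed TPM of macrophage and microglia markers in cord ran between 923 and 1157 at 18 months, median 1077.5, against 633 to 1318 at 10 months, median 666. In that comparison 9 of the 17 macrophage and microglia markers and 8 of 10 activated microglia markers rose and none fell. Of all genes 5.35% were called there, in either direction (edgeR quasi-likelihood test). The part of these markers in the class II values was not tested.

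The rest of the pathway was read from a list of 31 further genes. For exercise at 18 months none was called in any tissue, of 28 tested in gastrocnemius, 27 in quadriceps and 30 in cord (edgeR quasi-likelihood test). Of all genes 0.106%, 0.757% and 0% were called in that order, so a count of 0 says little about the list. Without the libraries that stand apart, Irf8 (-0.29, adjusted p = 0.0284 by edgeR) and Ifngr2 (-0.16, adjusted p = 0.0469 by edgeR) were called for exercise in gastrocnemius, where 4.52% of all genes were then called. For ageing none was called in either muscle, where 0.153% of all genes were called in gastrocnemius and 0.352% in quadriceps. In cord 10 of 30 rose with age and 0 fell, where 5.35% of all genes were called in either direction, with a median log2 difference of the list of 0.12 against 0.01 over all genes. They included the endosomal proteases Ctsd (0.39, adjusted p = 8.04e-06 by edgeR), Ctsl (0.18), Ctss (0.41, adjusted p = 0.00898 by edgeR), which trims the invariant chain, and Ctsb (0.14). Irf8, a transcription factor of myeloid cells, rose by 0.52 (adjusted p = 0.000402 by edgeR), and H2-Oa, a chain of the H2-DM inhibitor H2-O, by 0.83. Its partner chain H2-Ob, named after its value was seen, rose by 0.53. Without the cord libraries that stand apart, 7 of these 10 were called, and Ctsb was among those that were not (0.11, adjusted p = 0.055 by edgeR). H2-Oa had 0.281, 0.551 and 0.685 CPM in cord at 18 months, against 0.132, 0.301 and 0.412 CPM at 10 months. Its exons share 321 bases, 22.8%, with the antisense gene BC051537. The ageing effect differed between cord and the muscles for Ctsd (0.66) and Irf8 (0.37), both higher, and for Nfyb (-0.23), a subunit of the Y box factor NF-Y. Without the libraries that stand apart Nfyb was not called (-0.14, adjusted p = 0.141 by edgeR) and Ctsd stood at 0.42.

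Exercised mice of 18 months against sedentary mice of 10 months gave called pathway genes in each tissue. In gastrocnemius 0 rose and 2 fell, Ifngr2 (-0.25), a chain of the interferon gamma receptor, and Ctsd (-0.37). That was 2 of 28 tested, where 6.73% of all genes were called, and without the libraries that stand apart Ctsd stood at -0.13 (adjusted p = 0.0417 by edgeR). In quadriceps, where 11.1% of all genes were called, 5 of 27 rose, among them the X box factor subunit Rfx5 (0.37) and the endosomal protease Lgmn (0.35), and 3 fell, Jak2 (-0.26), Ifngr2 (-0.30) and Rfxap (-0.18). Without the library that stands apart 7 of these 8 were called, and Ctss, named after its value was seen, was not (0.61, adjusted p = 0.0711 by edgeR, against 0.65 with it). In cord 6 of 30 rose and 0 fell, where 1.51% of all genes were called, and these were Ctsd (0.30), Cd86 (0.55), a costimulatory ligand of T cells, Ctsl (0.16), Ctss (0.37), Irf8 (0.34) and H2-Oa (0.67). Between the muscles at 10 months, where 11% of all genes were called, 5 of 30 were higher and 2 lower in gastrocnemius, including Ctss (1.78), Lgmn (0.40), March1 (0.64), a ligase that sends class II molecules to degradation, Jak1 (0.23), Rfxank (-0.31) and Ifngr2 (-0.22). Without the libraries that stand apart 12 pathway genes were called between the muscles, the 7 among them, where 21.6% of all genes were called. Between cord and the muscles 15 of 30 were higher and 13 lower in cord, a share near the 92.1% of all genes called there.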

How the data were processed

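Raw counts per gene and TPM, scaled by transcript length, are the values the authors deposited for 97 libraries. The submitters' processing notes name STAR 2.5.2b and the build GRCm38.p5. For the counting program and its strand setting, none is given in the sources used here. A further 2 labelled quadriceps samples were not analysed here. The members and lists were chosen with earlier results of these data known. Counts were tested with edgeR 4.0.16 (R 4.3.3): TMM factors, filterByExpr with a minimum count of 10, quasi-likelihood F test, Benjamini-Hochberg over all genes tested, calls at an adjusted p under 0.05. Each tissue had its own fit over 3 groups, and comparisons between tissues 1 fit over 9 groups. DESeq2 1.42.0 and limma 3.58.1 (voom with quality weights), RLE factors, no filter, left-out libraries, a gene length slope and blocks were alternatives. Relations between libraries used log2 CPM (prior count 2) minus the group mean. Named beside the 7 members were up to 6 called pathway genes by p for each comparison, and the 5 genes most like the members in each tissue; a gene that this rule names is not reported here. The procedure was tested on simulated data.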

Additional observations from a re-analysis of the deposited data

Results flagged for a closer look

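In 5 of the 42 sets of 4 to 10 libraries, each 1 gene in 1 group, a single library lay apart from the others by the gap to its neighbour over the range of the group. Chance gives about 1 such set in 20. H2-Ab1 had 19.8 CPM in cord library 2.1 of the sedentary 10-month group, and the next library had 12.6 CPM. In the same library H2-DMa had 18.1 CPM, against 15.4 CPM in the next. Without that library H2-DMa was called for ageing in cord, at a log2 difference of 0.22 (adjusted p = 0.0231 by edgeR). That fit called 1698 of all genes, against 1015 in the full fit. H2-Eb1 had 32.2 CPM in quadriceps library 1.4 of the sedentary 10-month group, and the next had 20.2 CPM. Ciita had 1.91 CPM in the same quadriceps library, against 1.12 CPM in the next. Ciita had 2.04 CPM in quadriceps library 6.1 of the sedentary 18-month group, and the next had 1.31 CPM. Of 28 tests of a difference in effect between tissues, none passed for a class II gene.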

How the results depend on the processing

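Of 735 alternative values of single genes, 697 kept direction and side of the threshold, 35 changed sign and 3 passed the threshold. The count of called members for ageing in cord, 0, was 1 with limma voom with quality weights (H2-Ab1, where 11.9% of all genes were called). It ran between 0 and 1 when each library was left out. With the meningeal level as covariate the count was 1 (Cd74, where 6.14% were called). That list was chosen after its relation to H2-Ab1 was seen, so this call is not read as a test. Gastrocnemius against quadriceps gave 1 called member, Ciita, without the libraries that stand apart, where 21.6% of all genes were called. The cause was not tested.

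Among the changed signs, Ciita in cord against the muscles stood at 0.445 with library totals, and all others had adjusted p above 0.05 (log2 differences throughout). With limma voom, gastrocnemius ageing gave -0.0459 for H2-Aa, -0.0227 for H2-Ab1, -0.0476 for Cd74, -0.122 for H2-DMa and -0.127 for Ciita, gastrocnemius exercise gave -0.021 for H2-Ab1, exercised 18 months against sedentary 10 months gave -0.0287 for H2-Aa, -0.0437 for H2-Ab1 and -0.045 for H2-DMa there, and quadriceps ageing gave -0.0141 for H2-Aa, -0.00866 for H2-Ab1, -0.0661 for Cd74 and -0.105 for H2-DMb1. Without the libraries that stand apart, gastrocnemius ageing gave -0.0262 for H2-DMa and -0.0175 for Ciita, quadriceps ageing -0.0353 for Cd74 and -0.0309 for H2-DMb1, cord exercise -0.0285 for Ciita, the ageing effect in cord against the muscles 0.0316 for Ciita, and the exercise effect between the muscles 0.00108 for Cd74. With the first part of the library number as a block, exercise gave 0.0674 for H2-DMb1 in gastrocnemius, 0.00105 for Ciita in quadriceps and -0.0898 for Ciita in cord. Cord exercise gave -0.145 for Ciita with a gene length slope and -0.0106 with the meningeal level. With library totals, gastrocnemius against quadriceps gave 0.0347 for H2-Ab1, the ageing effect between the muscles -0.0239 for H2-Aa and -0.0175 for H2-Ab1, and the exercise effect between them 0.0323 for H2-Aa, 0.00999 for H2-Eb1, 0.0445 for Cd74 and 0.0486 for H2-DMa. With no filter, that effect was 0.00331 for Cd74.

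The labels do not say that a library number pairs tissues, so samples share only a number. Same-numbered libraries deviated together in 28 of 31 pairs between the muscles (r over 0.1, and 22 were best matched by their own number), in 14 of 33 between gastrocnemius and cord and in 11 of 31 between quadriceps and cord. With the number as a replicate block no call of a member changed, the ageing effect between the muscles was -0.00491 for H2-Aa, and Ciita between the muscles was 0.51. The block moved the count of all genes for the ageing effect in cord against the muscles to 1490, against 516 without it, and for the exercise effect to 867, against 175. Counts of all genes called for ageing moved to between 407 and 1892 in cord, against 1015, when each library was left out, and to 481 in gastrocnemius and 833 in quadriceps with limma voom, against 23 and 52. Ciita, H2-DMa and H2-DMb1 in muscle rest on few counts, as low as 15 for Ciita, which limits what could be detected.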

Other observations

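Lists for cells and states outside the class II pathway were read in the same fits. In cord, 7 of 15 tested interferon gamma response genes rose with age and 0 fell, with a median log2 difference of 0.34 against 0.01 over all genes, of which 5.35% were called. In the muscles 0 of 16 were called with age, with medians of 0.17 in gastrocnemius and 0.22 in quadriceps, where 0.153% and 0.352% of all genes were called. The ageing effect in cord against the muscles was called for 1 of the 16, with a list median of 0.05, where 2.61% of all genes were called. Without the libraries that stand apart it was called for 0 of the 16, with a list median of 0.07, where 1.27% of all genes were called. Of 7 tested T and NK cell markers 3 rose with age in cord. Their summed TPM lay between 5.09 and 8.86 in cord at 18 months, against 3.04 to 7.91 TPM at 10 months. B cell markers gave 1 of 9 and dendritic cell markers 0 of 8 in that comparison. Without the cord libraries that stand apart, 5 of 15 interferon gamma response genes and 2 of 8 T and NK cell markers rose. For exercise at 18 months in cord 0% of all genes were called, so none of these lists could hold a called gene.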
